A study of Mus musculus with 12 samples.

Results

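Bone marrow derived macrophages (BMDMs) that received both NBT3L tumor-conditioned medium (TCM) and the Syk inhibitor R788 were compared with unstimulated BMDMs, over all genes of the transcriptome. The members were the 4 RNA sequencing libraries that the labels assign to these conditions, of 12 libraries in all. Libraries SJ11 and SJ12 were labelled NBT3L TCM + R788, and libraries SJ1 and SJ2 were labelled NS. Of the 54232 genes in the table, the 16281 with at least 10 counts in at least 2 of the 12 libraries were tested. BMDMs came from C57BL/6 mice and had been in culture for 5 days. NBT3L TCM + R788 cells had TCM of the mouse neuroblastoma line NBT3L, which lacks MYCN amplification, for 24 h together with 500 nM R788. NS cells had no TCM and no R788. The groups NBT3L TCM, R788 and NB9464 TCM + R788 (2 libraries each, with the same culture, time and dose, as far as they apply) were used as comparators, NB9464 being a mouse neuroblastoma line with MYCN amplification.

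Several features limit these groups as a model. Which medium NS cells had, what R788 was dissolved in and how NBT3L TCM was prepared are not given. NB9464 TCM was made in DMEM without serum over 48 h, whereas BMDMs were grown with serum and M-CSF, so the effect of TCM, base medium, serum and growth factor cannot be told apart. Neither the number of mice nor pooling was stated, and the 2 libraries of a group may be technical replicates. The p-values then rest on the spread between such libraries, estimated for each gene over all 6 groups of the fit. The spread of groups outside a comparison, such as R788, therefore also enters the p-values of that comparison. RNA was taken from whole cultures, in which fewer cells of a type and less RNA per cell cannot be told apart.

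Syk is a tyrosine kinase that binds the phosphorylated ITAM motifs of Fc receptors, of the adaptors Fcer1g and Tyrobp, and of hemITAM lectin receptors, and passes the signal to PLCγ, PI3K and the CARD9 pathway. In macrophages it serves phagocytosis of antibody-coated particles, fungal recognition and cytokine production. R788 (fostamatinib) is the prodrug of a Syk inhibitor that also inhibits other kinases. Tumor-conditioned medium carries the soluble products of tumor cells, and macrophages exposed to such media often take on mixed inflammatory and suppressive profiles.

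Total counts of the 4 compared libraries were between 50108042 and 54838959, and between 17803 and 18343 genes had at least 1 count. The libraries were macrophage-like. The 10 macrophage markers summed to between 37200 and 38000 CPM (counts scaled to the library total) in NS. In NBT3L TCM + R788 they summed to between 51100 and 51900 CPM. Of these 10 markers 6 were called higher and 4 lower. The marker Lyz2 alone made up 2.789% and 2.887% of counts in NS and 3.767% and 3.681% in NBT3L TCM + R788. T and NK cell markers and erythroid markers each summed to under 1 CPM in these 4 libraries. The 12 neuroblastoma markers summed to between 4.89 and 5.16 CPM in NS, where 10 of them were at 0, and to between 5.2 and 6.35 CPM in NBT3L TCM + R788, where 4 were at 0. Of the 7 tested, 2 were called higher, Hand2 at 0 in both libraries in NS and 26.5 and 14.1 in NBT3L TCM + R788 and Dbh at 0 in both libraries and 15.9 and 12.1. Neutrophil markers summed to between 120 and 129 CPM in NS and between 150 and 154 CPM in NBT3L TCM + R788, but 5 of 8 tested were called lower and 1 higher (S100a8, from 1161 and 1369 to 5343 and 5471). B cell markers summed to between 2.71 and 4.26 CPM and between 7.45 and 7.59 CPM, the 1 called higher being Cd79b. Fibroblast and endothelial markers summed to between 57.5 and 62.4 CPM and between 76 and 76.9 CPM, with 6 of 9 called higher and 1 lower. The part of these markers in the results was not tested. Among the comparators, R788 library SJ8 stood apart. It had the fewest detected genes of the 12, 16149, and the SD of the log2 difference between the 2 R788 libraries was 0.469, against 0.298 to 0.335 in the other groups.

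Values below are normalized counts, which are counts divided by the size factor of the library, given for the first and the second library of a group in turn. They are not divided by gene length. Changes are log2 fold changes ± SE from a DESeq2 fit, and a gene was called when its Benjamini-Hochberg adjusted p was under 0.05. The adjusted p is printed for some genes only, and never where DESeq2 returned 0. A missing p therefore does not mark an extreme p.

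The joint exposure changed a large part of the transcriptome. In NBT3L TCM + R788 against NS, 6478 genes were called (39.8% of those tested), with 3273 higher (20.1%) and 3205 lower (19.7%). Of these, 1152 were at least 2-fold higher and 1271 at least 2-fold lower, and the median change of all genes tested was 0.01. By contrast, 7729 genes (47.5%) passed a test of a change smaller than 2-fold, 3257 of which were also called, so their changes were small but larger than the error.

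Cytokine genes were prominent among the 12 largest rises. Il12a, which encodes the p35 subunit of IL-12, was at 0 in both libraries of NS and at 860 and 854 normalized counts in NBT3L TCM + R788, at least 303-fold higher against a floor of 3 counts per library. Nhs, an actin regulator, was at 0 in both libraries of NS and at 503 and 554 in NBT3L TCM + R788, at least 187-fold higher. Both genes thus had no counts in NS and were clearly present in both exposed libraries. Il6, the gene of interleukin 6, went from 0 and 3.8 to 454 and 526 (log2 8.02 ± 0.76, adjusted p = 1e-24). Il1a, the gene of the alarmin interleukin 1 alpha, went from 1.9 and 11.4 to 2168 and 1964 (8.29 ± 0.40). Csf3, which encodes G-CSF, the growth factor of neutrophils, went from 1.9 and 5.7 to 1460.2 and 1674 (8.7 ± 0.52). For each of these cytokines both NS libraries were near 0. Cxcl5, a neutrophil-attracting chemokine, went from 1.9 and 5.7 to 1493 and 1439 (8.6 ± 0.54).

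The other large rises were of varied function. U90926, annotated as protein-coding but little characterized, went from 0 and 5.7 to 10114 and 10544 (11.83 ± 0.59). Cd38, the NAD-consuming ectoenzyme of activated macrophages, went from 78.9 and 24.7 to 10856 and 10875 (7.71 ± 0.42). Vnn3, a vanin of the pantetheinase family, went from 1.9 and 9.5 to 1546 and 1497 (8.07 ± 0.46). The NS values of Cd38 were uneven between libraries but far below NBT3L TCM + R788. Draxin, an axon guidance gene, went from 0 and 15.2 to 2292 and 2529 (8.31 ± 0.99). Raver2 and Shisa3 each overlap an exon of a gene on the opposite strand (Jak1 and Atp8a1), and since use of strand in the counting was not stated, their reads cannot be assigned with certainty. Raver2 went from 3.8 and 5.7 to 1206 and 1033 and Shisa3 from 0 and 3.8 to 459 and 413.

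The largest falls included genes of macrophage subsets and of the interferon response. Spp1, which encodes osteopontin, fell from 135345 and 137111 to 3719.9 and 3850.4 (-5.17 ± 0.052), and per transcript length its mean fell from 5270 to 112 TPM (transcript abundance corrected for gene length). Cd207, which encodes langerin, the lectin of Langerhans cells, fell from 408 and 345 to 2.1 and 0 (365-fold by summed counts, 95% counting interval 101 to 3020, from 799 counts to 2, with each count taken as 1 independent read). Il1rl1, the receptor of IL-33, fell from 225 and 176 to 12.7 and 0 (-4.99 ± 0.90). Spp1 thus remained abundant, while Cd207 and Il1rl1 were near 0 in NBT3L TCM + R788. Ifi213 and Ifi206, of the Ifi200 family of DNA-binding proteins, fell from 907 and 929 to 0 and 12.1 and from 1055 and 755 to 14.8 and 3. Epha2, an ephrin receptor, fell from 396 and 294 to 6.4 and 12.1. Hmga2, a chromatin protein of growing cells, fell from 1062 and 1236 to 57.3 and 23.1. Nes (nestin), Nptx1, Chst3, Apol9b and BC147527 completed the set, with log2 changes between -6.93 (Nptx1) and -4.91 (Chst3). The rule that chose the 12 rises and 12 falls asked for 1 direction in each pair of libraries, so the groups do not overlap by choice.

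**Figure D1:**
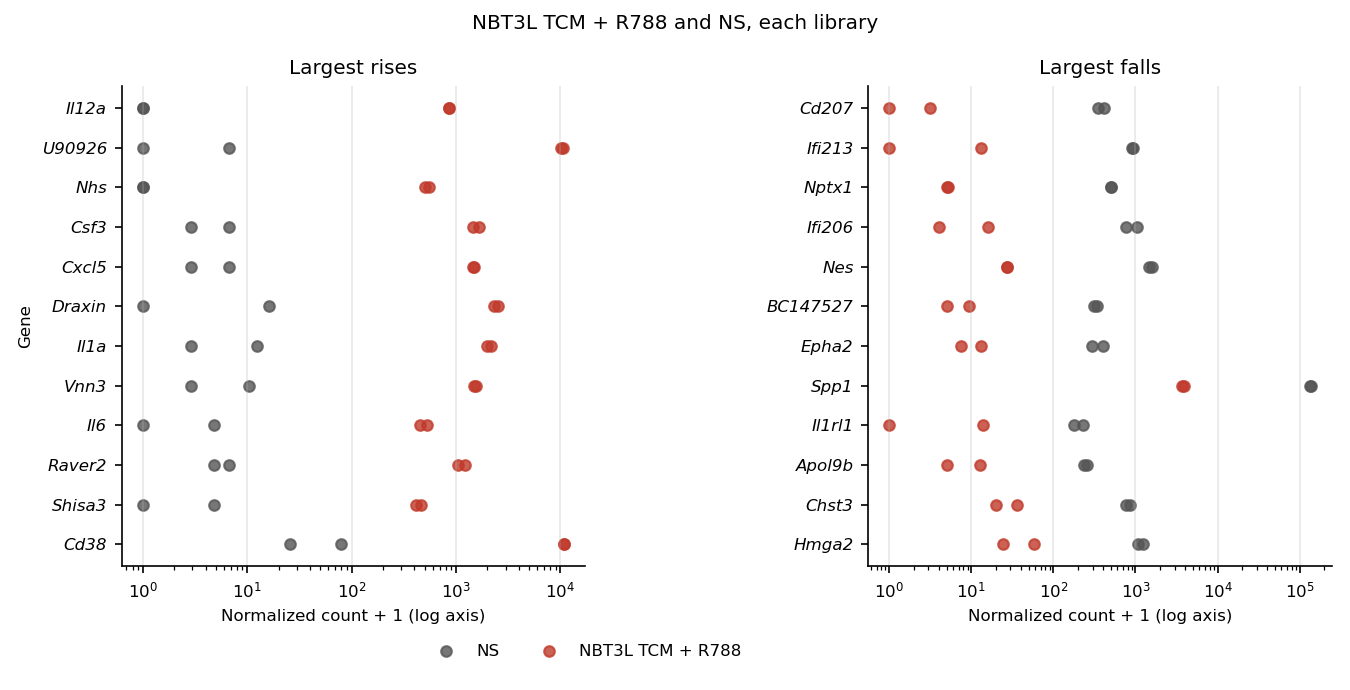
Normalized count plus 1, on a log axis, of the 12 largest rises (left) and 12 largest falls (right) by the selection rule, with 1 point for each NS library (grey) and each NBT3L TCM + R788 library (red). The separation of grey and red points was set by the selection rule, and Spp1 is the one fall whose red points stay above 1000.

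Gene lists put these genes in context. Members of 25 lists were described by how many were called in each direction, beside the share of all genes called (20.1% higher, 19.7% lower).

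**Figure D2:**
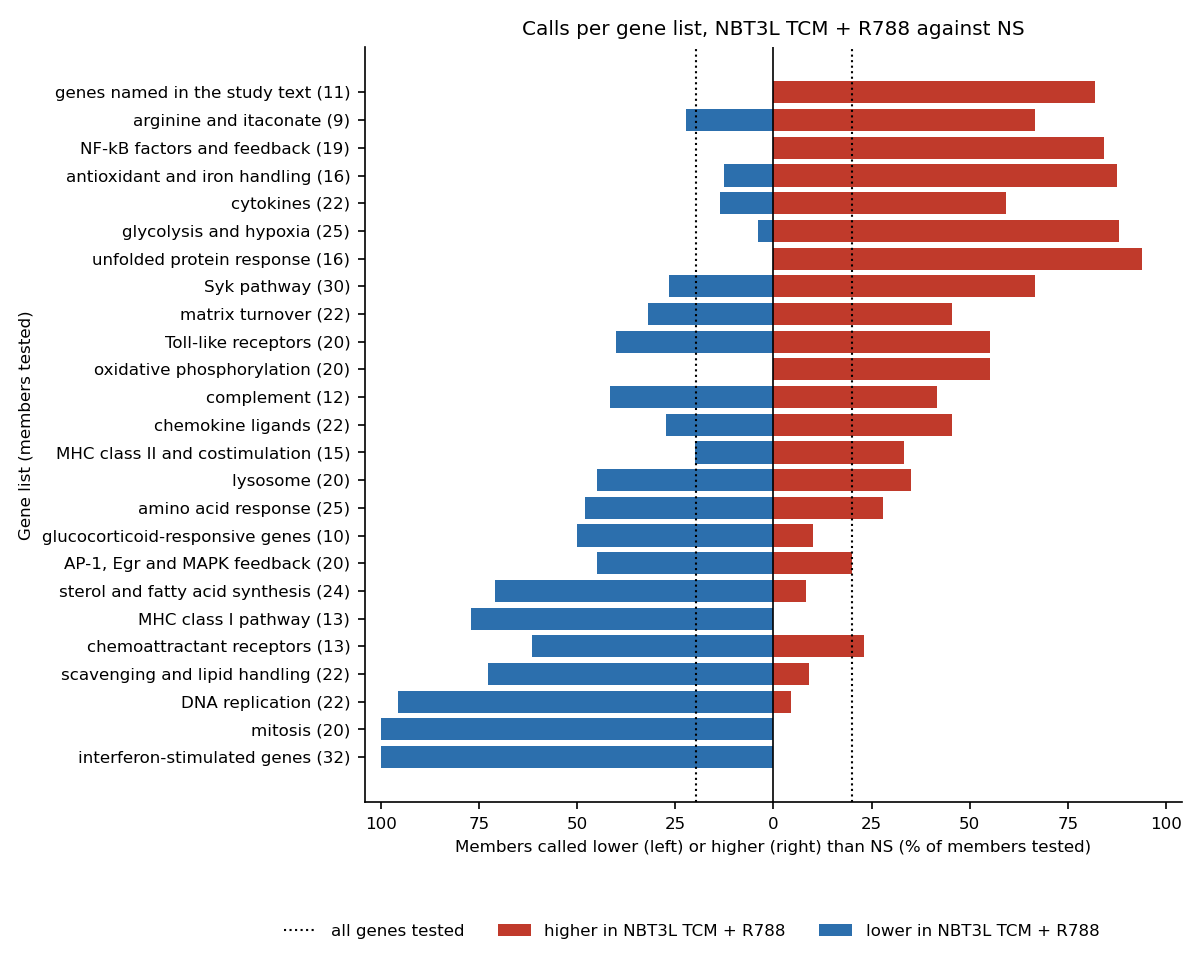
Share of the tested members of each gene list called higher (red, to the right) or lower (blue, to the left) in NBT3L TCM + R788 than in NS, with lists ordered by their median log2 change and dotted lines at the shares for all genes tested, 20.1% and 19.7%. The interferon-stimulated and mitosis lists were called lower in full, and the unfolded protein response list had the highest share called higher, 15 of 16 members.

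Most genes of the Syk pathway itself were higher. Of 30 members, 20 were called higher and 8 lower, with a median change of 0.55. Syk (ENSMUSG00000021457, chromosome 13) rose from 15428 and 14546 to 44194 and 43852 (log2 1.55 ± 0.051, adjusted p = 6.35e-202), and was also above its level in cells given NBT3L TCM alone (37102 and 37581, log2 0.24 ± 0.051). Among the receptors, the C-type lectin Clec4e (Mincle), which recognizes mycobacterial glycolipids, rose from 9756 and 9905 to 122073 and 121697 (3.63 ± 0.06). Clec4n (Dectin-2), a receptor of fungal mannans, rose from 2613 and 2672 to 16367 and 17099 (2.66 ± 0.066). Both lectins, picked among the largest called members of the list, rose, whereas the Fc receptors moved in both directions. The high-affinity receptor Fcgr1 fell from 13785 and 13973 to 6198 and 6125 (-1.17 ± 0.054), and the inhibitory receptor Fcgr2b rose from 3378 and 3233 to 8264 and 7879 (1.29 ± 0.067). Trem2, which pairs with Tyrobp and senses lipids, fell from 30906 and 34056 to 10817 and 11567 (-1.54 ± 0.066). The Src family kinase Fgr rose by 1.2 on the log2 scale, and the adaptor Lcp2 (SLP-76) and the exchange factor Vav1 by 1.0 and 1.07. Plcg2 was not called (0.02 ± 0.057).

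The 32 interferon-stimulated genes, which encode antiviral effectors, nucleic acid sensors and the transcription factors that induce them, were 32 of 32 called lower, with a median change of -2.79 against 0.01 over all genes tested. Changes ran from -7.22 (Ifi213) to -0.82 (Bst2). Ifit1, an RNA-binding effector, fell from 3274 and 3123 to 365 and 354 (-3.15 ± 0.14). Oasl2, of the oligoadenylate synthase family, fell from 18700.1 and 18604 to 1089 and 1019.9 (-4.14 ± 0.08). Irf7, the factor that amplifies type I interferon, fell from 25056 and 25319 to 1926 and 1774 (-3.77 ± 0.062). In all 3 the NS libraries were several times above both NBT3L TCM + R788 libraries. Ifit3, a partner of Ifit1, fell from 5209.6 and 4887 to 242 and 255 (-4.34 ± 0.18), and Ifi44 fell from 929.8 and 952 to 18 and 52.3 (-4.74 ± 0.52). Isg15, a ubiquitin-like modifier, fell from 5128 and 5633 to 797 and 887 (-2.67 ± 0.12). The Ifi200 genes and Oas1a have close relatives, and the handling of reads that map to several places was not stated, so their values are uncertain. The fall of the list was not particular to this joint exposure. Against NS, R788 alone had 31 of 32 called lower (median -1.9, all genes 15%). NBT3L TCM alone had 18 lower and 2 higher (median -0.4, all genes 17.3% lower). NB9464 TCM + R788 had 32 lower (median -3.36, all genes 19.4%). Interferon-stimulated promoters often carry GAAANNGAA, 2 GAAA-type repeats bound by IRF and ISGF3 factors. Of the 23 members with a promoter in the RefSeq table (GRCm38.p6, 250 bases before to 50 bases after the start), 16 (69.6%) held this motif on either strand, against 9.03% of the 11263 tested genes with a promoter. Promoters of Ifit1 (chr19:34640639-34640938, plus strand) and Isg15 (chr4:156200769-156201068, minus strand) are shown because both genes fell and both hold 3 matches, some overlapping, given in capitals. A match is a description of the letters, not a bound site. Motif shares, here and below, count list members whatever their change, so they are no result of these data.
Ifit1: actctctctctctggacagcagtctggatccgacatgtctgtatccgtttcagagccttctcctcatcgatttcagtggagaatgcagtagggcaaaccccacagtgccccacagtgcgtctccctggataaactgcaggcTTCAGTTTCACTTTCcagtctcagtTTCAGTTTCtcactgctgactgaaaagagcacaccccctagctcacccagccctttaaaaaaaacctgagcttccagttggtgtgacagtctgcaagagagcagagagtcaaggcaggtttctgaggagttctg
Isg15: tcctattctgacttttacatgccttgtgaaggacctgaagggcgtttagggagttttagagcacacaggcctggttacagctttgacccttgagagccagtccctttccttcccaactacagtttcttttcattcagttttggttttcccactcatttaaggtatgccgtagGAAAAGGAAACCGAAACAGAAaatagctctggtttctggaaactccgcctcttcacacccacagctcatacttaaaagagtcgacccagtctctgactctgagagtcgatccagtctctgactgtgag

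Genes of antigen presentation were split. In the MHC class I pathway 10 of 13 members were called lower and 0 higher. The peptide transporter gene Tap1 fell from 7054 and 6783 to 2679 and 2367 (-1.46 ± 0.094), and the class I regulator Nlrc5 by 1.33 on the log2 scale. The nonclassical H2-Q4 and H2-T23 fell by 2.06 and 1.51, while the classical H2-K1 was not called (-0.12 ± 0.058). In the class II and costimulation list 5 of 15 members were called higher and 3 lower, the latter close to the share of all genes and down to 1 without SJ1, without SJ2 or without SJ12. H2-Ab1, the beta chain of I-A, rose from 764 and 903 to 2460.2 and 2962 (1.7 ± 0.14), whereas its partner H2-Aa fell from 578 and 619 to 436 and 444 (-0.44 ± 0.18). The call of H2-Aa was lost in each fit without 1 of the 4 libraries (adjusted p between 0.11 and 0.216). H2-Eb1, of I-E, was at 489 and 516 in NS and 370.1 and 213 in NBT3L TCM + R788 (-0.79 ± 0.30), a call lost without SJ1, SJ2 or SJ12. H2 genes share sequence with relatives, which leaves their counts uncertain. Cd274, which encodes the checkpoint ligand PD-L1, rose from 1657 and 1627 to 7884 and 7246 (2.2 ± 0.069). Cd86, a costimulatory ligand of T cells, fell from 479 and 601 to 227 and 312 (-1.0 ± 0.23), and Cd40 rose by 0.73.

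Cytokine genes were mostly higher: 13 of 22 tested were called higher and 3 lower, with a median of 1.05. Besides Il12a, Il12b, the p40 subunit shared by IL-12 and IL-23, rose from 5.6 and 0 to 308 and 297 (6.74 ± 0.62). Il1b, the gene of the inflammasome-processed interleukin 1 beta, rose from 52.6 and 55 to 4922 and 4614 (6.47 ± 0.17). Tnf rose from 2781 and 3037 to 8903 and 8408 (1.57 ± 0.074). All of these were called genes, so their lack of overlap between groups adds no support. Il10, an anti-inflammatory cytokine, rose from 179 and 169 to 634 and 623 (log2 1.85 ± 0.19, adjusted p = 1.62e-21). Tgfb1 rose from 20576 and 21347 to 28434 and 28228 (0.43 ± 0.049). Il1rn, the IL-1 receptor antagonist, rose from 1975 and 2114 to 2808 and 3086 (0.53 ± 0.11). Igf1, a growth factor of resting macrophages, fell from 21518 and 21674 to 5624 and 5351 (-1.98 ± 0.061). Il18 fell by 1.45 on the log2 scale. The IL-1 decoy receptor Il1r2 was called lower (-2.04 ± 0.88), but not by edgeR (adjusted p = 0.0799) nor without any 1 of the 4 libraries.

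The study discusses a set of markers of suppressive or stimulatory macrophages, here 12 genes with IL-12 taken as its subunits Il12a and Il12b. Since they were chosen by the study on these and related samples, their direction is not independent evidence. Of the 11 tested, 9 were called higher and 0 lower, and both classes rose. Among the suppressive genes, Arg1 (arginase 1) rose from 125 and 148 to 366 and 457 (log2 1.59 ± 0.23, adjusted p = 1.54e-11) and Mmp9 rose from 1157 and 1072 to 6527 and 6667 (2.57 ± 0.079). Among the stimulatory genes, Nos2, the inducible nitric oxide synthase that competes with arginase for arginine, rose from 67.6 and 74.9 to 1121 and 958 (3.87 ± 0.18). Vegfa was at 1784 and 1796 in NS and 1716 and 1627 in NBT3L TCM + R788 and was not called (-0.1 ± 0.12). Ido1 was at 0 in both libraries of NS and at 0 and 2 in NBT3L TCM + R788, too few counts for a fold change, and Ifng was below the count minimum. In the wider arginine and itaconate list 6 of 9 were called higher. The arginine transporter Slc7a2 rose from 82.6 and 98.6 to 3353 and 2979 (5.13 ± 0.16), and Acod1, which makes itaconate, rose from 11574 and 10962 to 129715 and 131790.5 (3.54 ± 0.045). Arg2, the mitochondrial arginase, rose from 31.9 and 17.1 to 425 and 379 (4.04 ± 0.33), though it overlaps an exon of a gene on the opposite strand.

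Ligands of CXCR2 rose and ligands of CCR2 fell. The 4 ligands of CXCR2, the chemokine receptor of neutrophils, were all called higher and the 3 ligands of CCR2, the receptor of inflammatory monocytes, all lower, within a list of 22 with 10 higher and 6 lower. Of the 8 other CC ligands 3 were called higher and 2 lower, and of the 3 CXCR3 ligands 1 was lower. Cxcl1 rose from 115 and 108 to 5246 and 5061 (5.53 ± 0.13). Cxcl2 and Cxcl3 rose by 4.29 and 7.45 on the log2 scale. Ccl12 fell from 493 and 619 to 61.5 and 90.4 (-2.87 ± 0.25), whereas Ccl2 fell only from 23264 and 25789 to 20086 and 18875 (log2 -0.33 ± 0.086, adjusted p = 0.000474). Among the other ligands, Ccl3 (MIP-1 alpha) rose from 2025 and 2208 to 15431 and 15605 (2.87 ± 0.062) and the interferon-inducible Cxcl10 fell from 664 and 709 to 165 and 163 (-2.06 ± 0.29). Of 13 chemoattractant receptors 8 were called lower and 3 higher. Ccr2 itself fell from 6189 and 5835 to 311 and 271 (-4.37 ± 0.12), and Cx3cr1, the fractalkine receptor of resident-type macrophages, fell from 3349 and 3099 to 256 and 284 (-3.58 ± 0.15). Ccr3, the eotaxin receptor, fell from 451 and 399 to 12.7 and 22.1 (-4.61 ± 0.50). For these receptors each NS library was far above each NBT3L TCM + R788 library. The formyl peptide receptor gene Fpr1, which guides cells to bacterial products, rose from 1412 and 1606 to 26313 and 25056 (4.09 ± 0.082).

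NF-kB genes rose as a list, with 16 of 19 called higher, 0 lower and a median of 1.60. Saa3, an acute phase serum amyloid, rose from 17338 and 20855 to 1731597 and 1803800 (6.53 ± 0.15), and per transcript length its mean went from 466 to 33000 TPM. Sod2, the mitochondrial superoxide dismutase, rose from 5317 and 5642 to 88359.7 and 89522 (4.02 ± 0.068). Nfkbiz, the nuclear cofactor of secondary response genes, rose from 1289.5 and 1146 to 10416 and 10306 (3.09 ± 0.067). The rises in this list extended to its brakes: Irak3, which dampens Toll-like receptor signaling, rose from 3161 and 3055 to 18144 and 18289. Ptgs2, which encodes the inducible cyclooxygenase, rose from 41.3 and 76.8 to 871 and 878 (3.89 ± 0.23). Nfkb2 and Relb, partners in the noncanonical dimer, rose by 1.5 and 1.35 on the log2 scale, while Rela and Rel were not called (-0.02 ± 0.073 and -0.1 ± 0.11). Of 20 AP-1, Egr and MAPK feedback genes, 4 were called higher and 9 lower. Egr2, a growth factor-responsive zinc finger gene, fell from 125 and 133 to 40.3 and 21.1 (log2 -2.07 ± 0.58, adjusted p = 0.00123, but 0.0507 without SJ12), and the MAPK phosphatase gene Dusp6 fell from 4920.4 and 4649 to 1856 and 2330.2 (-1.19 ± 0.098). The early response gene Ier3 rose from 1336 and 1384 to 5208 and 5450.1 (1.97 ± 0.084). Spry2, an inhibitor of receptor tyrosine kinase signaling, fell from 779 and 714 to 254 and 232 (-1.62 ± 0.23), and the phosphatase gene Dusp2 rose from 96.7 and 158 to 355 and 256 (1.26 ± 0.27).

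Pattern recognition genes moved in both directions. Of 20 members of the Toll-like receptor list, 11 were called higher and 8 lower. Tlr1 and Tlr2, surface receptors of bacterial lipoproteins, rose from 1606 and 1566 to 6184 and 6272 (1.97 ± 0.084) and from 5768 and 6074 to 20472 and 19928 (1.77 ± 0.055). Tlr3 and Tlr13, endosomal receptors of RNA, fell from 1095 and 855 to 382 and 286 (-1.55 ± 0.23) and from 19172 and 17137 to 8525 and 8512 (-1.09 ± 0.07). The surface receptor Tlr4 fell (-0.92 ± 0.11) and the endosomal Tlr9 rose (0.62 ± 0.17), the latter call being lost without SJ12 (adjusted p = 0.0504). Tlr5, the flagellin receptor, fell from 232 and 226 to 46.7 and 46.2 (-2.3 ± 0.43). Ticam2 (TRAM), the adaptor of Tlr4, rose from 486 and 488 to 2039 and 2208 (2.12 ± 0.15), but it shares exon bases with Tmed7 on the same strand. Of 12 complement genes, 5 were called higher and 5 lower. C1qa, of the classical pathway initiator C1q, fell from 12687 and 13924 to 2852 and 3159 (-2.15 ± 0.097), and C1qb and C1qc fell by 1.69 and 1.8 on the log2 scale. The central component C3 rose from 10589 and 10120.1 to 50691 and 49984 (2.28 ± 0.046), and Cfb, factor B of the alternative pathway, rose from 56.4 and 55.9 to 771 and 774 (3.78 ± 0.21). Cd55, which speeds the decay of complement convertases, rose from 85.5 and 92 to 596 and 774 (2.95 ± 0.21).

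Scavenging and lipid handling genes were mostly lower, 16 of 22 being called lower and 2 higher. Marco, a scavenger receptor that binds bacteria and particles, rose from 56469 and 57478 to 713578 and 702905 (3.64 ± 0.049), from a mean of 1890 to 17900 TPM. Mrc1, the mannose receptor (CD206), fell from 28261 and 26069 to 2095 and 2225 (-3.65 ± 0.078). The other gene to rise was Olr1, the receptor of oxidized LDL (2.8 and 11.4 in NS, 123 and 118 in NBT3L TCM + R788). Among lipid-associated genes 9 of 10 fell, including Lpl, which hydrolyses lipoprotein triglyceride, from 148325 and 136458 to 38914 and 37717 (-1.89 ± 0.051), and Apoe from 5447 and 6055 to 2109 and 2147 (-1.43 ± 0.098). Of the receptors for apoptotic cells, Axl fell from 2131 and 1942 to 140 and 229 (-3.46 ± 0.23), and its ligand Gas6 fell from 12059 and 12209 to 2469 and 2646 (-2.25 ± 0.077). Receptor and ligand were both lower in both libraries. In the sterol and fatty acid list 17 of 24 were called lower and 2 higher, with 12 of 14 sterol synthesis and uptake genes lower. Scd1, which desaturates fatty acids, fell from 779.5 and 374 to 114 and 91.4 (-2.5 ± 0.34), and Cyp51, a sterol demethylase, fell from 4153 and 3775 to 1622 and 1772 (-1.22 ± 0.095). Idi1, of isoprenoid synthesis, fell from 1489.5 and 1287 to 476 and 532 (-1.46 ± 0.18). Nr1h3 (LXR alpha), a sterol-sensing nuclear receptor, rose from 950.5 and 912 to 2527 and 2667 (1.48 ± 0.12). Its target Abcg1, a cholesterol exporter, fell from 2251 and 2381 to 873 and 755 (-1.51 ± 0.12). Of the 4 efflux genes of the list, which include both, 2 were called higher and 1 lower. The lysosome list was mixed (7 higher and 9 lower of 20), with cathepsin L (Ctsl) from 139702 and 146459.7 to 54846 and 55132 and cathepsin Z (Ctsz) from 51632 and 54369 to 125311 and 123410.3. Cathepsin S (Ctss) fell from 140416 and 148699 to 77256 and 77435 (-0.9 ± 0.048) and Atp6v0d2, a subunit of the proton pump, fell from 470.5 and 473 to 164 and 143 (-1.62 ± 0.26).

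Antioxidant and iron genes were mostly higher, 14 of 16 with 2 lower (1 without SJ1 or without SJ11). The 10 targets of NRF2, the factor of the oxidative stress response, were called higher in full. Hmox1, which degrades heme and frees its iron, rose from 37941 and 38388 to 147966 and 149135 (1.96 ± 0.041), and Gsr, glutathione reductase, rose from 8451 and 7667 to 32617 and 33977 (2.05 ± 0.068). Fth1, the ferritin heavy chain that stores iron, rose from 590012 and 622344 to 1940294 and 1958974 (1.69 ± 0.065). The iron exporter Slc40a1 (ferroportin) fell from 4343 and 4366 to 1029.7 and 974 (-2.12 ± 0.093), so that iron storage and export genes moved in opposite directions. Lcn2, which sequesters bacterial siderophores, rose from 1164 and 1231 to 82093 and 84055 (6.12 ± 0.069). The motif TGACNNNGC, searched for this list, was found in 4 of 11 members with a promoter (36.4%), against 16.9% of tested genes. Of 22 matrix turnover genes, 10 were called higher and 7 lower, and the metalloproteinases were split. Mmp14, a membrane-bound activator of other proteinases, rose from 2596 and 2615 to 45872 and 45458 (4.13 ± 0.051), and Mmp2 rose from 163 and 192 to 2005 and 1982 (3.49 ± 0.15). The macrophage elastase Mmp12 fell from 23405 and 23036 to 2014 and 1989.5 (-3.54 ± 0.085), and the collagenase Mmp13 fell from 1390 and 1174 to 178 and 168 (-2.89 ± 0.20). In the plasminogen system the activator Plau (urokinase) fell from 11750.1 and 10982 to 917 and 774 and its inhibitor Serpinb2 rose from 121 and 58.8 to 1390.2 and 1505. Thbs1, thrombospondin 1, rose from 4139.9 and 4068 to 49701 and 50663 (3.61 ± 0.059).

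Glycolysis and hypoxia genes were higher in 22 of 25 cases, with 1 lower (Pfkp, -0.3 ± 0.065) and a median of 1.01. HIF1A, the oxygen-regulated factor, drives many of them. Ldha, which converts pyruvate to lactate, rose from 68701 and 72074 to 149449 and 151244 (1.09 ± 0.052). Slc16a3 (MCT4), which exports lactate, rose from 11130.2 and 11158 to 32848 and 33630.1 (1.58 ± 0.065). Pfkfb3, which makes the activator of phosphofructokinase, rose from 2218 and 2038 to 15747 and 15999 (2.9 ± 0.064). Pfkl, a phosphofructokinase subunit, rose from 7229 and 7671 to 26891 and 26612 (1.84 ± 0.06), and the hypoxia-induced Ndrg1 rose from 2286 and 2043 to 7175 and 7387 (1.75 ± 0.091). Bnip3, a mitophagy receptor and HIF1A target, rose from 1425 and 1516 to 4443 and 4617 (1.62 ± 0.10), and Egln3, an oxygen-sensing prolyl hydroxylase, rose from 630.2 and 528 to 2452 and 2311 (2.04 ± 0.12). The core of the hypoxia response element, ACGTG, was found on either strand in 17 of 24 members with a promoter (70.8%), against 28.3% of tested genes. Promoters of Slc16a3 (chr11:120948817-120949116, plus strand) and Bnip3 (chr7:138909457-138909756, minus strand), from RefSeq on GRCm38.p6, are shown because both genes rose and each holds 2 matches, in capitals. In Bnip3 the 2 matches, 1 on each strand, overlap.
Slc16a3: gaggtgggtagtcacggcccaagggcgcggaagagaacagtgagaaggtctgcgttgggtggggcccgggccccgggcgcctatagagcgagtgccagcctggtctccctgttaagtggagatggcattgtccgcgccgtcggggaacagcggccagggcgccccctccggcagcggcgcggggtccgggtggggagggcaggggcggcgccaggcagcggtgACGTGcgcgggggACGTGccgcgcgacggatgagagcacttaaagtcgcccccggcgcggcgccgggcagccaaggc
Bnip3: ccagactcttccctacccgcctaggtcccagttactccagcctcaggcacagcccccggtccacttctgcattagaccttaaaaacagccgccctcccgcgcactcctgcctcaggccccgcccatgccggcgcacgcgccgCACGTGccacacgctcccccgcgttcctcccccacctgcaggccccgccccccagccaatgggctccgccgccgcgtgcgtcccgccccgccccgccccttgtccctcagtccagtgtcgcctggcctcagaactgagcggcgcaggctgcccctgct

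Changes of oxidative phosphorylation genes were smaller. Of 20 oxidative phosphorylation subunits 11 were called higher and 0 lower, the largest change being 0.92 (Cox5a), and the median 0.30. Sdhb, Ndufb8 and Cycs, of complex II, complex I and cytochrome c, changed by 0.6 ± 0.062, 0.59 ± 0.11 and 0.48 ± 0.11. Unfolded protein response genes, which serve folding in the endoplasmic reticulum, were higher in 15 of 16 cases and lower in 0. Hspa5 (BiP), the main chaperone, rose from 52663 and 52122 to 93233 and 91268 (0.82 ± 0.052), and Hyou1 rose from 9051 and 8691 to 26502 and 25988 (1.56 ± 0.05). Herpud1, of protein degradation at the endoplasmic reticulum, rose from 2529 and 2244 to 6592 and 7445 (1.56 ± 0.097), and Creld2 and Manf rose by 1.4 and 1.38 on the log2 scale.

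The amino acid response, in which ATF4 induces amino acid synthesis and transport genes when supply is short, changed in both directions, 12 of 25 being called lower and 7 higher. Asns (asparagine synthetase) fell from 3041 and 2885 to 1263 and 1115 (-1.32 ± 0.089), and Chac1, which degrades glutathione, fell from 299.6 and 266 to 33.9 and 54.3 (-2.68 ± 0.30). Psat1, of serine synthesis, fell from 4621 and 4684 to 1384 and 1396 (-1.74 ± 0.085). The cystine importer Slc7a11, which is also an NRF2 target, went the other way, from 1336 and 1422 to 26322 and 26655 (4.26 ± 0.085). Ddit4, an inhibitor of mTORC1, rose from 148 and 153 to 617 and 596 (2.01 ± 0.21), and Slc6a9, a glycine transporter whose exons overlap genes on the opposite strand, rose from 64.8 and 99.6 to 387 and 349 (2.16 ± 0.32). The ATF4 element TGATGNAA was found in 6 of 21 members with a promoter (28.6%), against 2.98% of tested genes. Promoters of Asns (chr6:7693160-7693459, minus strand) and Chac1 (chr2:119350992-119351291, plus strand) are shown because both genes also separate the 2 tumor media, as described with the comparison of media, and each holds 1 match, in capitals.
Asns: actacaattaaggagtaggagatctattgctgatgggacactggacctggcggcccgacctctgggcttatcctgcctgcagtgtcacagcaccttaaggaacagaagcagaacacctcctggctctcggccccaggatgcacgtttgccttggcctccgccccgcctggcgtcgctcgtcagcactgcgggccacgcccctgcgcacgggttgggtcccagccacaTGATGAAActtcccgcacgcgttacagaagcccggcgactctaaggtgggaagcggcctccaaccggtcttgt
Chac1: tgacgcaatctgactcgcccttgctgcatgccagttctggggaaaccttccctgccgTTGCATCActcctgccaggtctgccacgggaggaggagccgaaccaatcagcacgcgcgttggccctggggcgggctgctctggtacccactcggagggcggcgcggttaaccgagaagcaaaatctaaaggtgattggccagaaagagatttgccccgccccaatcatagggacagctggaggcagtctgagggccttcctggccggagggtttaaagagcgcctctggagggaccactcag

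Proliferation genes were lower. Of 20 mitosis genes 20 were called lower (median -2.13), and of 22 DNA replication genes 21 lower and 1 higher (median -1.09). Cdk1, the mitotic kinase, fell from 8449 and 8840.1 to 2777 and 2763 (-1.64 ± 0.092). Kif11, a spindle motor, fell from 7512 and 7806 to 1303 and 1178 (-2.63 ± 0.094). Cenpf, a kinetochore protein, fell from 3088 and 2833 to 358 and 429 (-2.91 ± 0.16). For each of these the lowest NS library was far above the highest NBT3L TCM + R788 library. Mki67 fell from 22477 and 21047 to 6312 and 6832 (-1.73 ± 0.089). The mitotic kinase Plk1 and cyclin A2 (Ccna2) fell by 2.63 and 2.59 on the log2 scale. Pcna, the replication clamp, fell from 29326 and 30054 to 11234 and 11378 (-1.39 ± 0.056). Pola1 and Prim1, of the primase complex, fell by 1.69 and 1.49, and Tyms and Rrm1, of nucleotide synthesis, by 1.55 and 1.49 on the log2 scale. E2f1 was the 1 replication gene called higher (0.28 ± 0.081), a call lost without SJ1 (adjusted p = 0.0511). Both lists were also mostly lower against NS in the comparator groups. Mitosis genes called lower were 20 in NBT3L TCM alone (median -2.02), 17 in R788 alone (-0.61) and 20 in NB9464 TCM + R788 (-2.22). Replication genes called lower were 20 (median -0.66), 21 (-0.81) and 21 (-1.38) in the same order. The cell cycle homology region TTTGAA, read by the DREAM complex, was found in 11 of 16 mitosis members with a promoter (68.8%), against 14.6% of tested genes. Promoters of Cdk1 (chr10:69352863-69353162, minus strand) and Kif11 (chr19:37376132-37376431, plus strand) are shown as members that fell and hold the motif, 2 times and 1 time, in capitals. Of 10 glucocorticoid-responsive genes 5 were called lower and 1 higher. Tsc22d3 (GILZ) fell from 3245 and 3330.1 to 1032 and 1048 (-1.66 ± 0.088), and the metallothionein gene Mt1 rose from 7342 and 8456 to 18847 and 19412 (1.28 ± 0.08).
Cdk1: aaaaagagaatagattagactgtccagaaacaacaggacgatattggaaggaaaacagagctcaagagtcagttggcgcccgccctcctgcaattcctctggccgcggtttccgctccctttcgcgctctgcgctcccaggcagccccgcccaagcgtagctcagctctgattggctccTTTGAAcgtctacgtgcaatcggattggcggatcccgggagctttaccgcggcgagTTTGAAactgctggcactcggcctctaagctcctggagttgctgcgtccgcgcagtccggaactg
Kif11: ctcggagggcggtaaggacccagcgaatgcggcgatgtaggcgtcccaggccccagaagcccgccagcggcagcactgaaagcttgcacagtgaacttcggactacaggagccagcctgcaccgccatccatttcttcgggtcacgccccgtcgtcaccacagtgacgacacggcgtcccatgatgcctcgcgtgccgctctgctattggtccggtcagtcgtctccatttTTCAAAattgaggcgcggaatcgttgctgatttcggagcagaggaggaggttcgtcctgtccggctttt

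Comparison with the cells given NBT3L TCM alone addressed what R788 changed in the presence of the medium. Fewer genes were called than against NS, 2046 (12.6% of those tested), with 867 higher (5.33%) and 1179 lower (7.24%). A fit of only the libraries compared called 3678. At least 2-fold, 86 were higher and 228 lower. Leaving out 1 library of either group gave between 1172 and 1264 calls. All 32 interferon-stimulated genes were called lower, with a median of -2.44. Ifit1 was at 3754 and 3305 in NBT3L TCM and 365 and 354 with R788 added (-3.3 ± 0.14). The CCR2 ligand Ccl12 was at 1425 and 1705 and 61.5 and 90.4 (-4.36 ± 0.25), and Ccl2 at 89837 and 88609.8 and 20086 and 18875 (-2.19 ± 0.086). These were called genes, so that both libraries with R788 lay below both without adds no support. Csf3 was at 7308 and 6902 without and 1460.2 and 1674 with R788 (-2.18 ± 0.11), Serpinb2 at 9650.1 and 10346 and 1390.2 and 1505 (-2.79 ± 0.33). Il1b was at 9275 and 9335 and 4922 and 4614 (-0.96 ± 0.096). These 3 inflammatory genes were thus lower than with the medium alone while remaining far above NS. Il12a was higher with R788, 528 and 595 against 860 and 854 (0.61 ± 0.20), a call lost without any 1 of the 4 libraries, whereas Il12b was lower, 625 and 702 against 308 and 297 (-1.13 ± 0.21).

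Rises over NBT3L TCM alone were smaller. The 4 largest by the selection rule were Adgre4, Fcrls, Cpt1c and Nrxn2. Adgre4, an adhesion receptor of macrophages, was at 71.8 and 87.6 in NBT3L TCM and 299 and 318 in NBT3L TCM + R788 (1.95 ± 0.35). Fcrls, an Fc receptor-like gene of microglia, was at 576 and 569 and 1710.4 and 1992 (1.69 ± 0.13). Cpt1c and Nrxn2 overlap exons of genes on the opposite strand and stayed under 200 counts, with changes of 1.65 ± 0.54 and 1.64 ± 0.44, and both calls were lost without SJ6 or without SJ12. Among the glycolysis and hypoxia genes 4 of 25 were called higher and 2 lower, and among the mitosis genes 0 and 6 of 20. The 2 became 1 without SJ5, SJ11 or SJ12. The 6 became 3 by edgeR and without SJ5, SJ6 or SJ11, and 1 without SJ12.

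Comparison with R788 alone addressed what NBT3L TCM changed in inhibited cells. It called 6740 genes (41.4%), 3500 higher (21.5%) and 3240 lower (19.9%), and 5806 without library SJ8. Of 32 interferon-stimulated genes, 23 were called lower and 2 higher than with R788 alone (median -0.73). U90926, Draxin, Il12a and Nhs, the 4 largest rises, had no counts in either R788 library. The 4 largest falls were Hpgd, Tnfsf8, Epha2 and the predicted gene Gm10800, which was at 23.6 and 418 in the R788 libraries and is therefore uneven. Hpgd, which degrades prostaglandins, was at 316 and 241 in R788 and 0 in both libraries of NBT3L TCM + R788. Tnfsf8, which encodes CD30 ligand, was at 137 and 296 and 6.4 and 0 (-6.11 ± 0.93). Epha2 was at 527 and 242 and 6.4 and 12.1 (-5.38 ± 0.54). In these genes the R788 libraries differed from each other. That both lay above both NBT3L TCM + R788 libraries was set by the selection rule.

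The interaction tested whether the joint change differed from the sum, on the log2 scale, of the changes with NBT3L TCM alone and with R788 alone. It was called for 1649 genes (10.1% of those tested), 842 of them above 0 (5.17%) and 807 below 0 (4.96%). Without library SJ8 it was called for 1521 genes, without SJ7, the other R788 library, for 2585, and without 1 of SJ2, SJ6 or SJ12 for between 1034 and 1069. Since NS, NBT3L TCM and R788 share the fit, the levels of the 4 groups are given side by side. Of the glycolysis and hypoxia genes, 18 of 25 had a positive interaction and 0 a negative one. Ldha was at 68701 and 72074 in NS, 145530 and 141620.1 in NBT3L TCM, 42239 and 40345 in R788 and 149449 and 151244 in both (log2 0.84 ± 0.073, adjusted p = 1.02e-27). Slc16a3 followed the same order, at 11130.2 and 11158, 32056 and 31126, 7264 and 6212 and 32848 and 33630.1 (log2 0.8 ± 0.092, adjusted p = 8.5e-16). R788 libraries were thus below NS for these genes, while NBT3L TCM + R788 libraries were close to those with NBT3L TCM alone.

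**Figure D3:**
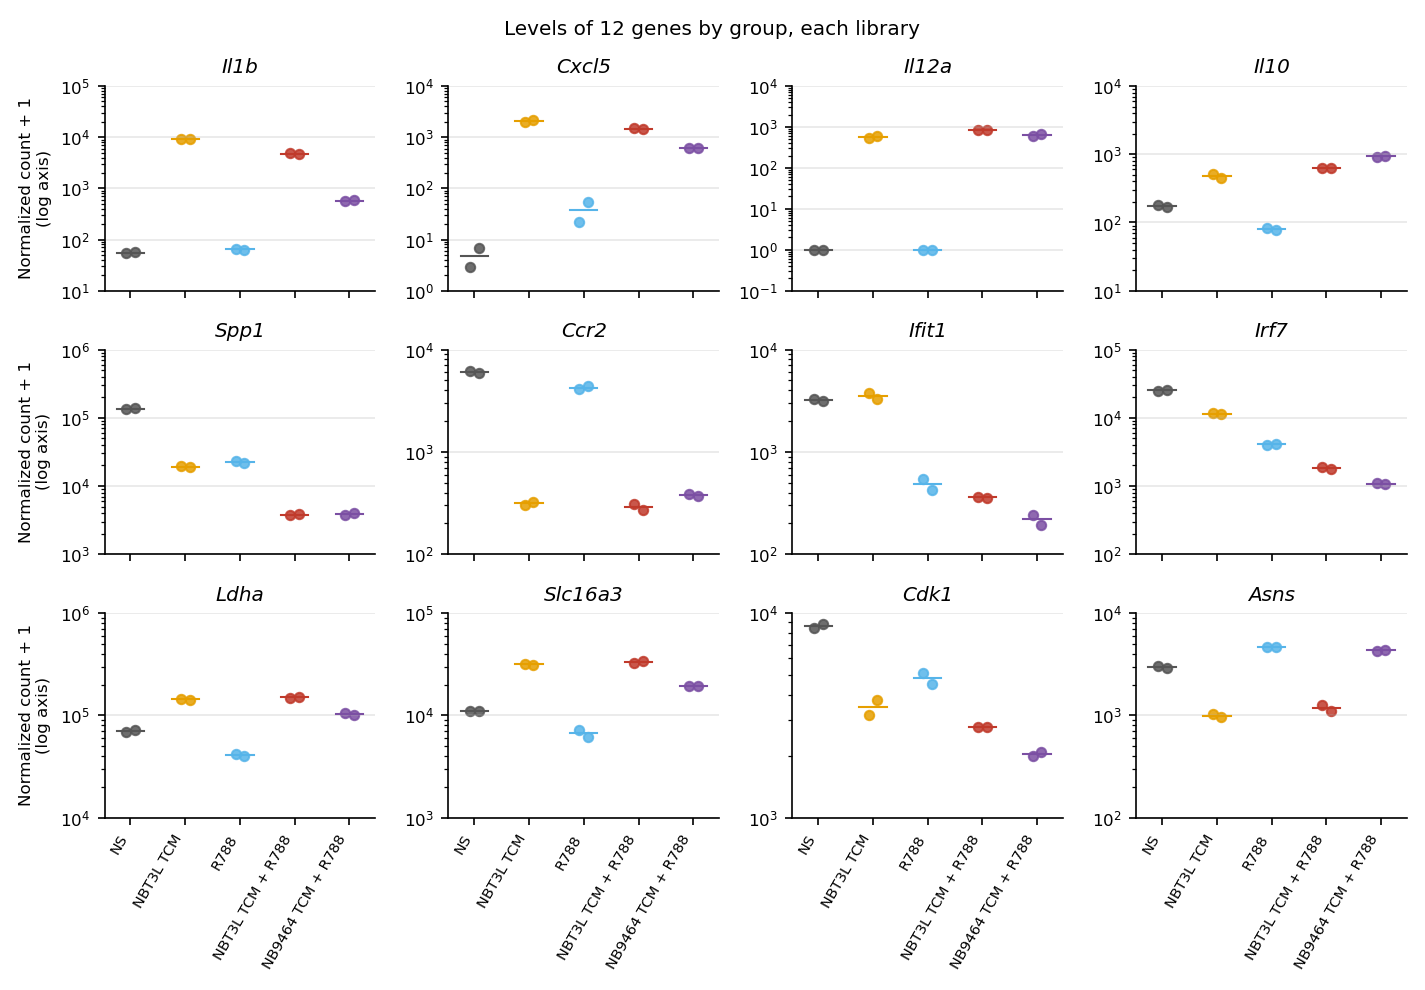
Normalized count plus 1, on a log axis, of 12 genes in each library of NS, NBT3L TCM, R788, NBT3L TCM + R788 and NB9464 TCM + R788, with a line at the group mean. Ifit1 and Irf7 are lowest in the groups that had both TCM and R788, Ldha and Slc16a3 are below NS in R788 alone but highest in the groups with NBT3L TCM, and Asns is lower in both NBT3L groups than in NB9464 TCM + R788.

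Among other lists, 12 of 20 mitosis genes had a positive interaction and 0 a negative one, a count that fell to 6 without NS library SJ2 and to 7 without NBT3L TCM + R788 library SJ12. Cdk1 was at 8449 and 8840.1 in NS, 3164 and 3752 in NBT3L TCM, 5079 and 4512 in R788 and 2777 and 2763 in NBT3L TCM + R788 (0.53 ± 0.13), so that each exposure alone was below NS and the joint level was the lowest. Of 32 interferon-stimulated genes 12 had a negative and 2 a positive interaction, the former being 7 by edgeR and without SJ5, and the latter 1 by edgeR and 0 without SJ2. Lpl was at 148325 and 136458, 56049 and 58765, 20814 and 21553 and 38914 and 37717 in the same order (2.17 ± 0.073). Il10 was at 179 and 169, 509.9 and 442, 81.8 and 75.8 and 634 and 623 (log2 1.55 ± 0.28, adjusted p = 1.3e-06). For Il10 the R788 libraries were the lowest and the NBT3L TCM + R788 libraries the highest of these 4 groups. The difference of Il10 between NBT3L TCM + R788 and NBT3L TCM alone was not called. Apoe was at 5447 and 6055, 1953 and 2074, 18913 and 22259.7 and 2109 and 2147 (-1.76 ± 0.14). Rasgrp3, an activator of Ras and Rap proteins, was at 357 and 397, 2.5 and 6.5, 322 and 315 and 57.3 and 60.3 (log2 3.92 ± 0.75, adjusted p = 6.44e-06). Rasgrp3 was thus near 0 in NBT3L TCM alone and intermediate in NBT3L TCM + R788. Cxcl5 was at 1.9 and 5.7, 1978 and 2159, 20.9 and 51.9 and 1493 and 1439 (log2 -3.79 ± 0.59, adjusted p = 9.94e-09), lowest in NS and highest in NBT3L TCM alone.

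**Figure D4:**
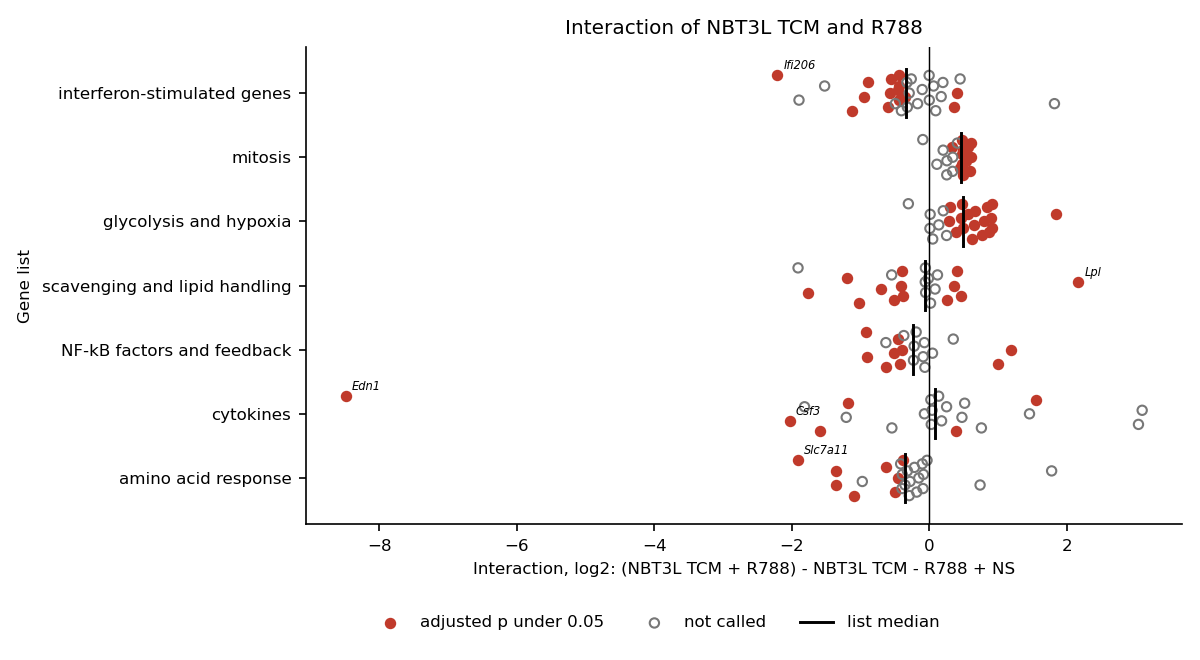
Interaction of NBT3L TCM and R788 on the log2 scale for each tested member of 7 gene lists, with filled points for members with an adjusted p under 0.05, open points for the others and a bar at the list median. The points of the mitosis and the glycolysis and hypoxia lists lie mostly to the right of 0, with medians of 0.46 and 0.48, and Edn1 lies far to the left at -8.49, a gene with no counts in NS.

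Comparison with NB9464 TCM + R788 held the inhibitor constant and varied the conditioned medium. Since the preparation of NBT3L TCM is not given, tumor line and medium preparation cannot be told apart. It called 1567 genes (9.62%), 992 higher in NBT3L TCM + R788 (6.09%) and 575 lower (3.53%), and between 851 and 994 when 1 library of either group was left out. Among genes that averaged 100 normalized counts or more, Il1b differed most on the higher side, at 4922 and 4614 in NBT3L TCM + R788 against 569 and 579.8 in NB9464 TCM + R788 (3.05 ± 0.10). Serpinb2 was at 1390.2 and 1505 against 203 and 271 (2.61 ± 0.34), and Pdpn, which encodes podoplanin, at 885 and 880.2 against 206 and 226 (2.03 ± 0.20). The rule that chose these genes asked for 1 direction in each pair of libraries, so the groups do not overlap by choice. Serinc2 was at 173 and 169 against 61.7 and 22.2 (2.02 ± 0.72), a call that was lost without SJ10, SJ11 or SJ12. The CCR2 ligand Ccl2 was at 20086 and 18875 against 9472 and 9529 (1.04 ± 0.087), and Ccl7 differed by 1.91 ± 0.061. Interferon-stimulated genes were higher in NBT3L TCM + R788 in 23 of 32 cases and lower in 0, and glycolysis and hypoxia genes higher in 20 of 25 and lower in 0. Bnip3 was at 4443 and 4617 against 1997 and 2427 (1.03 ± 0.10).

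Among the genes lower with NBT3L than with NB9464 TCM under R788 were those of the amino acid response, 16 of 25 members being called lower and 1 higher (0 by edgeR and without any 1 of the 4 libraries). Chac1 was at 33.9 and 54.3 in NBT3L TCM + R788 against 521 and 484 in NB9464 TCM + R788 (-3.51 ± 0.30). Asns was at 1263 and 1115 against 4294 and 4372 (-1.87 ± 0.088), and Phgdh, which starts serine synthesis, at 498 and 412 against 2158 and 2313 (-2.3 ± 0.16). In NS, Asns was at 3041 and 2885, so the 2 media lay on opposite sides of the unstimulated level for this gene. Glucocorticoid-responsive genes were also lower, 6 of 10, with Klf9, a transcription factor, at 76.3 and 39.2 against 649.5 and 574 (-3.41 ± 0.36) and Fkbp5, a cochaperone of the glucocorticoid receptor, at 976 and 940.5 against 4778 and 5166 (-2.38 ± 0.096). Tubb3, a neuronal tubulin, was at 28.6 and 54.3 against 292 and 386, and Hif3a at 32.9 and 46.2 against 258 and 239. The neuroblastoma markers summed to between 5.07 and 5.25 CPM in NB9464 TCM + R788 and between 5.2 and 6.35 CPM in NBT3L TCM + R788, and their part in the Tubb3 difference was not tested. Several cytokine and effector genes were lower with NBT3L TCM, Il12b at 308 and 297 against 725 and 744 (-1.28 ± 0.21), Il10 at 634 and 623 against 912 and 941 (-0.56 ± 0.18, a call lost without any 1 of the 4 libraries) and Lcn2 at 82093 and 84055 against 180129.7 and 173826 (-1.09 ± 0.062).

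**Figure D5:**
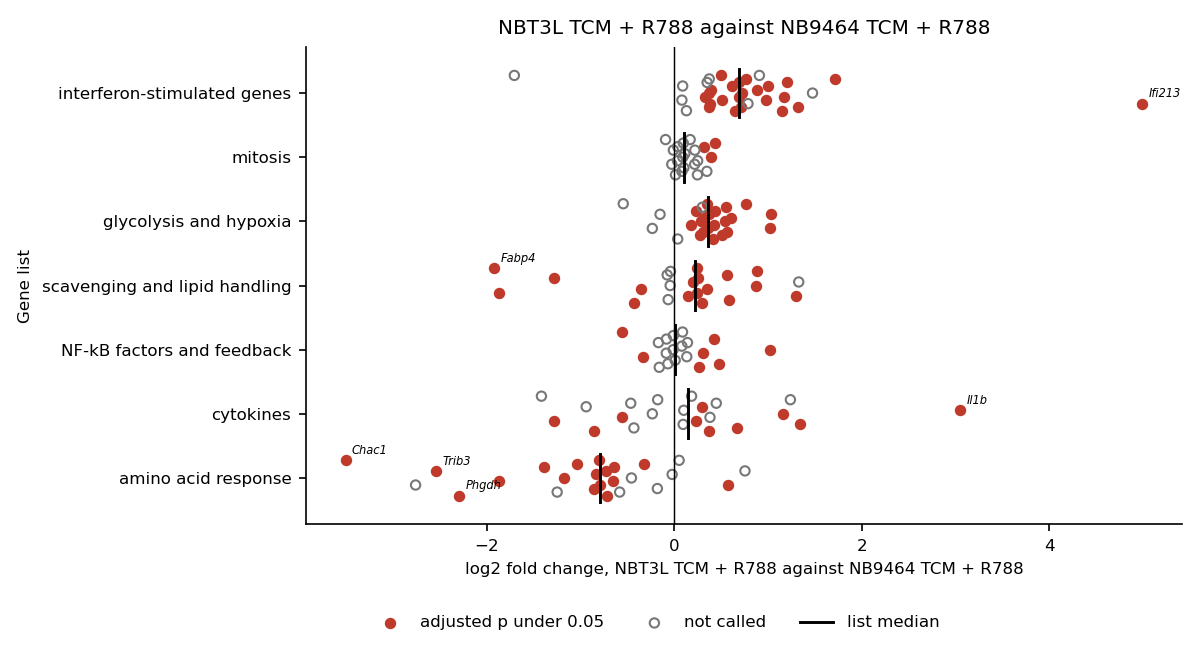
The log2 fold change between NBT3L TCM + R788 and NB9464 TCM + R788 for each tested member of 7 gene lists, with filled points for members with an adjusted p under 0.05, open points for the others and a bar at the list median. The interferon-stimulated list sits to the right of 0 (median 0.69) and the amino acid response to the left (median -0.79), while Ifi213 at 4.99 rests on 0 and 12.1 counts against 0 in both libraries and was not called by edgeR (adjusted p = 0.0781).

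Some genes were within 2-fold of their NS level under the joint exposure although the medium alone moved them. Within 2-fold does not mean unchanged, since Il1rn and Rasgrp4, for example, were still called against NS. Among genes that passed the test of a change under 2-fold, the 5 with the largest rise in NBT3L TCM alone were Il1rn, Ccl4, Pdpn, Ccl2 and Fosl1, given as a description. Il1rn was at 1975 and 2114 in NS, 16222 and 16839 in NBT3L TCM and 2808 and 3086 in NBT3L TCM + R788. Ccl4, which encodes MIP-1 beta, was at 1922 and 1979.8, 10038 and 11158 and 3358 and 3175. Pdpn was at 747 and 834, 2972 and 3285 and 885 and 880.2. That NBT3L TCM alone was the highest of the 3 groups follows from the rule that chose these genes. Fosl1, an AP-1 subunit, was at 146 and 207, 646 and 606 and 139 and 138. The 5 with the largest fall in NBT3L TCM alone were Pdk2, Lyl1, Miip, Tpcn1 and Rasgrp4. Pdk2, a kinase that holds back pyruvate oxidation, was at 373 and 297, 129 and 112 and 221 and 292, and Tpcn1, an endolysosomal channel, at 6786 and 6820.4, 2979 and 2989.8 and 4152 and 4046. For these genes NBT3L TCM + R788 lay between NBT3L TCM and NS. The rule that chose them favored a level nearer to NS than with NBT3L TCM alone.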

How the data were processed

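RNA of BMDMs was sequenced in 6 groups of 2 libraries, assigned from the labels. The authors deposited raw read counts per Ensembl gene, whole numbers not divided by depth or gene length. Per their methods and processing notes, reads were mapped to mouse mm10 with STAR 2.6.1d and quantified with Salmon 1.4.0 in a bcbio pipeline. The deposited values are whole numbers beside a gene length that equals the merged exon length of GENCODE M21 for 97.3% of the shared IDs, a form that a read counter also gives, so the tool behind the counts is not settled here. The use of strand and the handling of reads that map to several places were not given in the sources used here. The labels name paired-end and the methods single reads, and even values made up between 65.2% and 67.9% of the counts from 1 to 40. If both mates were counted, intervals made from the counts are too narrow, which was not tested. The methods state triplicates, the labels 2 libraries per group. Total counts were between 44977847 and 56449685.

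A gene entered the tests if 2 or more libraries had 10 or more counts for it. DESeq2 1.42.0 in R 4.3.3 (the study's tool) was fitted once to 6 group means over the 12 libraries, with two-sided Wald tests, unshrunken log2 fold changes and Benjamini-Hochberg adjustment within each contrast. Symbols and positions came from GENCODE M21 (GRCm38), which held 54165 of 54232 IDs, and promoters from RefSeq (GRCm38.p6). A fold against a group at 0 was computed against 3 counts per library. The alternatives were edgeR 4.0.16 with TMM scaling, TMM within DESeq2, apeglm 1.24.0, counts divided by 2, other filters, a 2-fold minimum, fits of fewer libraries and leaving out each library. The fits were tested on simulated data.

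The libraries compared, the gene lists and the rules were chosen with earlier results of these data known. The text names Syk, the 12 largest rises and falls among called protein-coding genes that averaged 100 normalized counts or more and moved 1 way in each pair of libraries, the 4 largest called members of each list with the same mean, and others by role, the 4 largest in each direction in the other comparisons, and 5 in each direction within 2-fold. Some members of the lists are counted but not reported by name here.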

Additional observations from a re-analysis of the deposited data

Results flagged for a closer look

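The change with NBT3L TCM differed between cells with and without R788, by the DESeq2 interaction term, for the 8 genes of the selection rule. Values are log2 ± SE over 2 libraries per group. The interaction was above 0 for Draxin (6.31 ± 1.98, adjusted p = 0.0155), Ascl2 (5.51 ± 1.62, adjusted p = 0.00845), Rasgrp3 (3.92 ± 0.75, adjusted p = 6.44e-06) and Mgarp (3.75 ± 0.95, adjusted p = 0.00148). Draxin and Ascl2 had no counts in either R788 library, so their size depends on how zeros were fitted. Ascl2, a basic helix-loop-helix factor, was at 9.4 and 3.8 in NS, 248 and 149 in NBT3L TCM and 176 and 253 in NBT3L TCM + R788. Mgarp, a mitochondrial protein, was at 7.5 and 28.4 in NS, 163 and 213 in NBT3L TCM, 5.5 and 0 in R788 and 405 and 328 in NBT3L TCM + R788. The interaction was below 0 for Edn1 (-8.49 ± 1.51, adjusted p = 8.28e-07), Hpgd (-5.99 ± 1.68, adjusted p = 0.0051), Cxcl5 (-3.79 ± 0.59, adjusted p = 9.94e-09) and Cd207 (-3.41 ± 1.20, adjusted p = 0.037). Edn1, which encodes endothelin 1, was at 0 in both libraries of NS, 332 and 352 in NBT3L TCM, 23.6 and 22.4 in R788 and 119 and 133 in NBT3L TCM + R788, and Hpgd had no counts in NBT3L TCM + R788, so these sizes also depend on the fit of zeros. The calls of Draxin, Ascl2, Mgarp, Hpgd and Cd207 were lost when certain single libraries were left out. Without NS library SJ2 the interaction of Draxin was 0.857 (adjusted p = 0.909).

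Under R788 the change from NS differed between NBT3L and NB9464 TCM for 8 further genes of the rule, tested as the direct contrast of the 2 groups. NBT3L TCM gave higher levels of Il1b (3.05 ± 0.10, adjusted p = 1.79e-182), Serpinb2 (2.61 ± 0.34, adjusted p = 1.32e-12), Pdpn (2.03 ± 0.20, adjusted p = 5.99e-23) and Serinc2 (2.02 ± 0.72, adjusted p = 0.0466). It gave lower levels of Chac1 (-3.51 ± 0.30, adjusted p = 1.6e-28), Klf9 (-3.41 ± 0.36, adjusted p = 2.13e-19), Tubb3 (-3.03 ± 0.56, adjusted p = 2.64e-06) and Hif3a (-2.65 ± 0.55, adjusted p = 4.33e-05). Groups of 2 libraries are too small for a test of single outlying libraries.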

How the results depend on the processing

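The counts of called genes stayed within 1.5 times their value with edgeR, TMM scaling, without a filter, with a minimum mean of 50 counts and with counts divided by 2, in each comparison run. A 2-fold minimum lowered them to 2423 against NS, 288 for the interaction, 314 against NBT3L TCM (27.4% of them higher, against 42.4% of all calls), 2236 against R788 and 294 against NB9464 TCM + R788 (52.7% higher, against 63.3%). A fit of only the libraries compared gave 3678 calls against NBT3L TCM. A range of 1.5-fold in place of 2-fold held 4655 genes. Calls shared with edgeR in the same direction were 6157 of 6478 against NS, 1180 of 1649 for the interaction, 1588 of 2046 against NBT3L TCM, 6417 of 6740 against R788 and 1187 of 1567 against NB9464 TCM + R788.

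Leaving out single libraries, the lone library being assumed to vary like the other groups, gave between 5047 and 6887 calls against NS and between 5411 and 6844 against R788. The interaction had between 1034 (without SJ2) and 2585 (without SJ7) calls, with 1063 without SJ6 and 1069 without SJ12. Its share above 0 was 58.1% without SJ7 and 51.1% with all libraries. Against NBT3L TCM there were between 1172 (without SJ6) and 2558 (without SJ8) calls, with 1264 without SJ5, 1222 without SJ11 and 1186 without SJ12. Against NB9464 TCM + R788 there were between 851 (without SJ12) and 1977 (without SJ8), with 974 without SJ9, 994 without SJ10 and 864 without SJ11. Genes within 2-fold numbered between 7178 and 7928. Fits without a library of the compared groups rest on fewer samples by construction, and the cause of the higher counts without an R788 library was not tested.

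No named gene changed direction under an alternative that gave a value. Ido1 had none without SJ12, since no counts were left. Among genes of the selection rule, calls lost without 1 library were those of H2-Eb1 and Rasgrp4 against NS, of 5 genes in the interaction, of Cpt1c and Nrxn2 against NBT3L TCM and of Serinc2 against NB9464 TCM + R788, which edgeR did not call either (adjusted p = 0.114). Among all list members called, 30 lost their call against NS by edgeR or without at least 1 library, 66 against NBT3L TCM, 44 against R788, 68 against NB9464 TCM + R788 and 61 in the interaction. In a fit of the 4 compared libraries Il1rl1 had an adjusted p of 0.0506. The interferon-stimulated, mitosis and NF-kB list counts against NS were the same in each left-out fit and by edgeR (32 and 20 lower, 16 higher). No paired analysis was possible because the labels do not name the mouse or culture each library came from.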
